A study of Mus musculus with 6 samples.

Results

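The immunoglobulin variable (V) gene segments of the mouse were followed in spinal cord RNA after injury. They are the 218 genes that the table of counts annotates as immunoglobulin V genes, among 56859 genes in all, and each stands on 1 row under its own identifier. Of the 218, 113 are heavy chain segments on chromosome 12, 100 are kappa light chain segments on chromosome 6, and 3 are lambda light chain segments on chromosome 16. The remaining 2, Gm42543 and Gm43218, are predicted genes at the kappa locus without a V segment name, and both had 0 counts in every library. All samples were spinal cord of wild-type (WT) mice, of a strain that the labels do not name, taken 6 weeks after contusion of the cord at T10, and share a single batch label. The injury group (n = 3) received solvent injections, per the labels' protocols, and the injury + AZ876 group (n = 3) received AZ876, a drug that activates the liver X receptors, intraperitoneally at 5 mg/kg once daily for 1 week. No uninjured cord is part of the comparison. Whether replicates came from separate animals is not stated, so the p-values reflect only how these samples vary, which may be technical in part.

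An antibody is made of heavy chains and of light chains of the kappa or lambda type. In each developing B cell, DNA recombination joins a V segment to a J segment, with a D segment between them in heavy chains, and this exon is spliced to a constant region exon of the same chain. A B cell clone and the antibody-secreting plasma cells that descend from it therefore transcribe mainly 1 productive heavy and 1 productive light V segment, and plasma cells carry far more of this RNA per cell than resting B cells. In healthy spinal cord tissue such cells are rare, and after spinal cord injury B cells and plasma cells are known to enter the lesioned cord.

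The 3′ ends of 7 V segments are shown first. They were chosen, after the values were seen, from those that led a library or had the smallest p. This is the end that recombination joins to D or J. Each line holds the last 90 bases of the unrearranged segment, in the sense direction, from the GENCODE M21 transcripts on GRCm38, matched by gene identifier. Capitals mark a tyrosine codon, a tyrosine or phenylalanine codon and a cysteine codon in a row. That cysteine is the conserved residue which precedes the third hypervariable loop, and the letters after it are the part of the loop that the segment itself encodes.
Ighv1-9: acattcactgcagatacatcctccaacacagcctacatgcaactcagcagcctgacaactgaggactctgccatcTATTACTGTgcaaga
Ighv1-63: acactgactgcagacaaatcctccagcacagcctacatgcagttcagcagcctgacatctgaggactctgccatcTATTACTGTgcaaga
Igkv3-4: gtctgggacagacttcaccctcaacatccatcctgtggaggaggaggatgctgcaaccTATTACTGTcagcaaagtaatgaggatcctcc
Igkv6-15: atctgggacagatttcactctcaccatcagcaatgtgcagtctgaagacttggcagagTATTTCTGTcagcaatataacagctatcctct
Igkv8-21: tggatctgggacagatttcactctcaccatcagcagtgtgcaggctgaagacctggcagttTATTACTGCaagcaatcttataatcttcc
Igkv1-117: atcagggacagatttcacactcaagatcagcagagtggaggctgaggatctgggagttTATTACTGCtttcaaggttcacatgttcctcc
Iglv1: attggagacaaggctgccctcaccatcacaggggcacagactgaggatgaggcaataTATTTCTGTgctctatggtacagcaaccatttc
All 218 segments were found in that annotation. The 3 codons, searched on the sense strand only, stood in the last 40 bases of 108 of 113 heavy, 97 of 100 kappa and 2 of 3 lambda segments. In both heavy segments shown 6 bases follow the cysteine codon, and in the kappa and lambda segments 20 to 24 bases do. The strain of these mice may carry other alleles than this reference.

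V segment RNA was found in every library, and its level was higher on average with AZ876, but the groups overlapped. The 218 segments took 97, 454 and 222 counts in injury replicates 1, 2 and 3 and 215, 1132 and 1185 counts in AZ876 replicates 1, 2 and 3, in libraries of 14067649 to 20211175 counts. In CPM, counts scaled to a common library size with TMM factors, this was 4.74, 23.8 and 14.4 with injury and 14.7, 79.4 and 68.9 with AZ876. AZ876 replicates 2 and 3 stood above all other libraries, while AZ876 replicate 1 lay below injury replicate 2. The means were 14.3 ± 9.53 CPM and 54.3 ± 34.7 CPM (SD, n = 3 each), a ratio of 3.80, and 2.84 to 5.67 with any 1 library left out. In tissue RNA, more cells of a type and more RNA per cell cannot be told apart. No p-value is given for sums over segments.

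The 3 chain classes were also summed separately. Heavy segments summed to 1.81, 6.39 and 3.77 CPM in the injury libraries and to 6.21, 26.0 and 23.1 CPM in the AZ876 libraries, a ratio of means of 4.62. Kappa segments summed to 2.73, 17.3 and 10.3 CPM with injury and to 8.06, 49.9 and 36.0 CPM with AZ876, a ratio of 3.10. Both classes overlapped because AZ876 replicate 1 stood below injury replicate 2. Lambda segments summed to 0.195, 0.105 and 0.390 CPM with injury and to 0.410, 3.51 and 9.83 CPM with AZ876, so that every AZ876 library lay above every injury library. The margin between AZ876 replicate 1 and injury replicate 3 rested on 6 counts in each of these libraries. The lambda ratio of means was 19.9, and it was 8.52 without AZ876 replicate 3 and 30.5 without injury replicate 3. The kappa ratio ran from 2.18 without AZ876 replicate 2 to 4.82 without injury replicate 2.

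**Figure D1:**
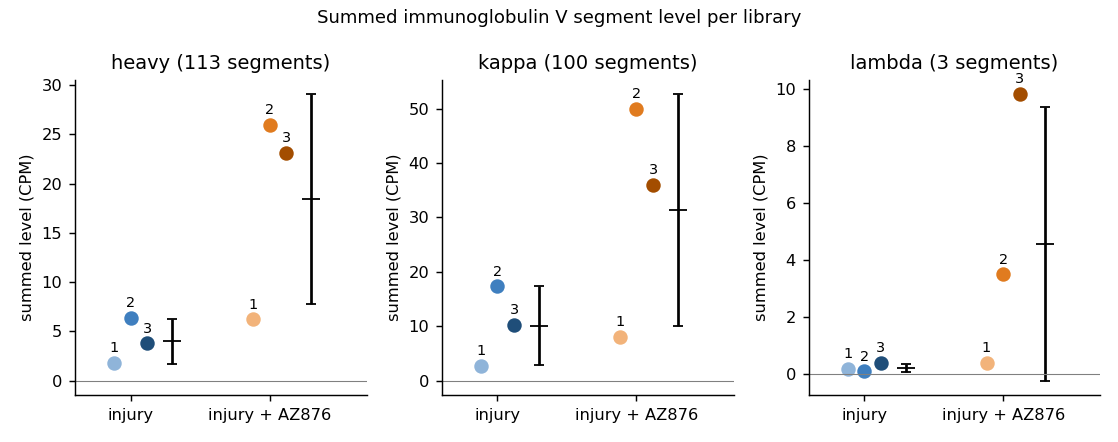
Summed level in CPM (vertical axes, each panel on its own scale) of heavy, kappa and lambda V segments in the 3 injury and the 3 injury + AZ876 libraries; numbers on the points are replicates, and the black bars are the mean ± SD (n = 3). AZ876 replicates 2 and 3 stand above all other libraries in each panel, and AZ876 replicate 1 lies within the injury range for heavy and kappa.

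Kappa segments took the largest share of V counts in each of the 6 libraries. Their share was 57.7%, 72.7% and 71.2% in the injury libraries and 54.9%, 62.9% and 52.2% in the AZ876 libraries. Heavy segments took 38.1%, 26.9% and 26.1% with injury and 42.3%, 32.7% and 33.5% with AZ876. The lambda share was 4.12%, 0.441% and 2.70% with injury and 2.79%, 4.42% and 14.3% with AZ876. AZ876 replicate 3 stood apart with its lambda share, and the groups overlapped in all 3 shares.

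Every AZ876 library held more V segments than any injury library. With at least 1 count, 23, 33 and 47 segments were found in the injury libraries and 50, 82 and 87 in the AZ876 libraries. The nearest pair, injury replicate 3 and AZ876 replicate 1, differed by 3 segments. At a minimum of 3 counts the numbers were 11, 13 and 20 against 26, 59 and 63, and at a minimum of 5 counts 6, 10 and 15 against 16, 47 and 52. A segment with 0 counts may still have been present: a count of 0 allows up to 3 counts, or 0.146 to 0.210 CPM depending on the library, and such limits cover counting error only. Thinned to the smallest library total, 14067649 counts, the expected numbers were 20.1, 28.8 and 44.9 with injury and 49.8, 82.0 and 83.7 with AZ876.

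The number of segments grows with the number of V counts, so the libraries were also thinned to the same 97 V counts, an alternative chosen after seeing the data. The expected numbers were then 23.0, 16.7 and 32.0 segments with injury and 36.8, 37.9 and 41.2 with AZ876. The AZ876 libraries stood above the injury libraries at equal V counts, and the difference of means was 14.8 segments against 38.7 before thinning. Kappa segments thinned to 56 counts gave 12.0, 9.24 and 16.5 with injury and 20.9, 20.1 and 24.2 with AZ876, without overlap. Heavy segments thinned to 37 counts gave 10, 7.07 and 15.3 with injury and 14.7, 17.1 and 17.4 with AZ876, and here AZ876 replicate 1 lay below injury replicate 3.

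**Figure D2:**
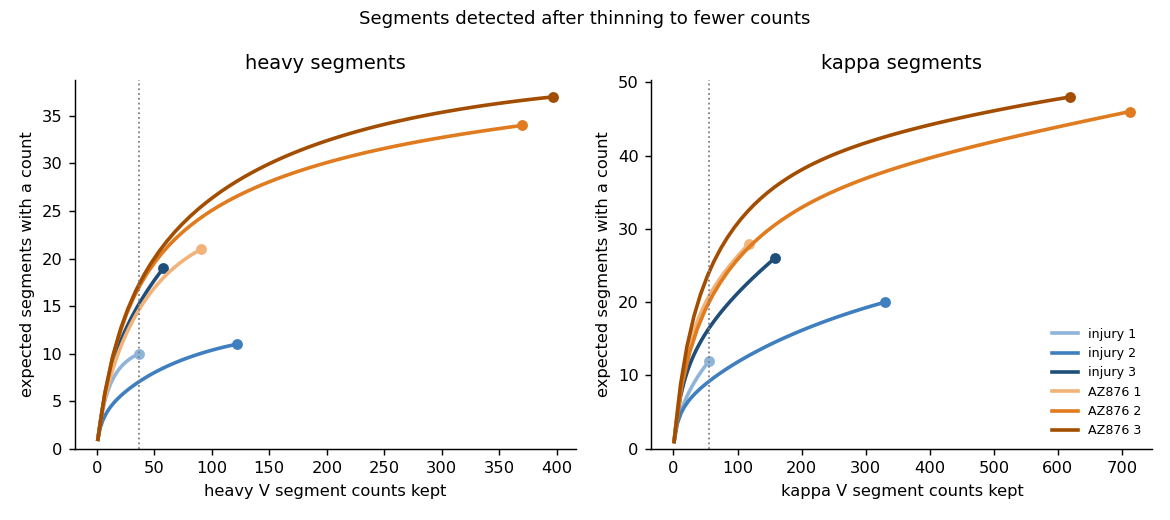
Expected number of heavy (left) and kappa (right) V segments with at least 1 count (vertical axes) when each library is thinned to the number of V counts on the horizontal axis; points mark each library at its full depth and the dotted lines the smallest library, 37 heavy and 56 kappa counts. At the dotted line the 3 AZ876 curves lie above the 3 injury curves for kappa, and 1 injury curve lies among them for heavy.

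Over all 6 libraries 137 segments had a count and 81 had none. Few were shared by many libraries: 42 were found in 1 library only, 47 in 2 libraries and 4 in all 6. Those 4 were Ighv1-26, Igkv6-15, Igkv1-135 and Iglv1. A total of 30 segments were found in all 3 AZ876 libraries and 5 in all 3 injury libraries. The 60 segments found with AZ876 only held 734 counts, and the 12 found with injury only held 35 counts. As a background, 43.8% of the V segments with a count were found with AZ876 only, against 6.85% of all genes with a count, and 8.76% with injury only, against 10.2% of all genes. Segments with few counts are easily found in 1 group only, and the AZ876 group held more V counts in sum. The share of 43.8% thus partly restates the summed levels. The mean level was higher with AZ876 for 113 of the 137, or 82.5%, where 48.7% of all genes with a count were higher.

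The segments that libraries had in common were counted in pairs. Injury replicates 1 and 2 shared 3 heavy segments, 30% of those in replicate 1 and 27.3% of those in replicate 2. Injury replicates 1 and 3 shared 7 kappa segments, 58.3% and 26.9% of theirs. AZ876 replicates 2 and 3 shared 21 heavy segments, 61.8% and 56.8% of their segments, and 31 kappa segments, 67.4% and 64.6%. Between the groups, AZ876 replicate 3 held 72.7% of the heavy segments of injury replicate 2 and 76.9% of the kappa segments of injury replicate 3. Libraries with more V counts hold more segments, so these shares depend on V counts and are not particular to AZ876 pairs.

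Single segments took a large part of the kappa counts in the injury libraries and a smaller part in the AZ876 libraries. The leading kappa segment of injury replicate 1 was Igkv6-15 with 29 of 56 counts, or 51.8% (95% exact Clopper-Pearson interval 38.0% to 65.3%). In injury replicate 2 it was Igkv3-4 with 148 of 330 counts, or 44.8% (39.4% to 50.4%). In injury replicate 3 it was Igkv4-61 with 41 of 158 counts, or 25.9% (19.3% to 33.5%). With AZ876 the leading shares were lower: Igkv4-79 led replicate 1 with 15 of 118 counts, or 12.7% (7.29% to 20.1%). Igkv8-21 led replicate 2 with 172 of 712 counts, or 24.2% (21.1% to 27.5%). Igkv1-117 led replicate 3 with 83 of 619 counts, or 13.4% (10.8% to 16.3%).

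Each library thus had a leading kappa segment of its own, 6 in all. In AZ876 replicate 1 the lead was narrow, with Igkv4-79 at 15, Igkv10-96 at 14 and Igkv1-117 at 13 counts. Counting error leaves it uncertain which segment led there. The shares of the groups did not overlap, although injury replicate 3 and AZ876 replicate 2 stood within each other's counting intervals. The 3 most abundant kappa segments together took 76.8%, 77.3% and 47.5% with injury and 35.6%, 42.8% and 28.4% with AZ876, again without overlap. The inverse Simpson index, the number of equally abundant segments that would give the same evenness, was 3.23, 3.72 and 8.50 for kappa with injury and 14.3, 10.4 and 19.0 with AZ876. Intervals treat reads as independent molecules and cover counting error only.

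Heavy segments showed no such separation. Ighv1-9 led injury replicate 1 with 8 of 37 counts, or 21.6% (9.83% to 38.2%), and injury replicate 2 with 63 of 122, or 51.6% (42.4% to 60.8%). Ighv1-4 led injury replicate 3 with 9 of 58 counts, or 15.5% (7.35% to 27.4%). In the AZ876 libraries Ighv1-63 led replicate 1 with 26 of 91 counts, or 28.6% (19.6% to 39.0%). Ighv1-75 led replicate 2 with 60 of 370, or 16.2% (12.6% to 20.4%), and Ighv1-9 led replicate 3 with 63 of 397, or 15.9% (12.4% to 19.8%). Injury replicate 2 held the highest share and the other 5 libraries overlapped, with 4 different leading segments in all. Without injury replicate 2, the mean share was 1.65 percentage points higher with AZ876, where it was 9.37 points lower over all libraries. The inverse Simpson index of heavy segments was 7.09, 3.05 and 10.6 with injury and 7.85, 14.3 and 14.5 with AZ876.

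**Figure D3:**
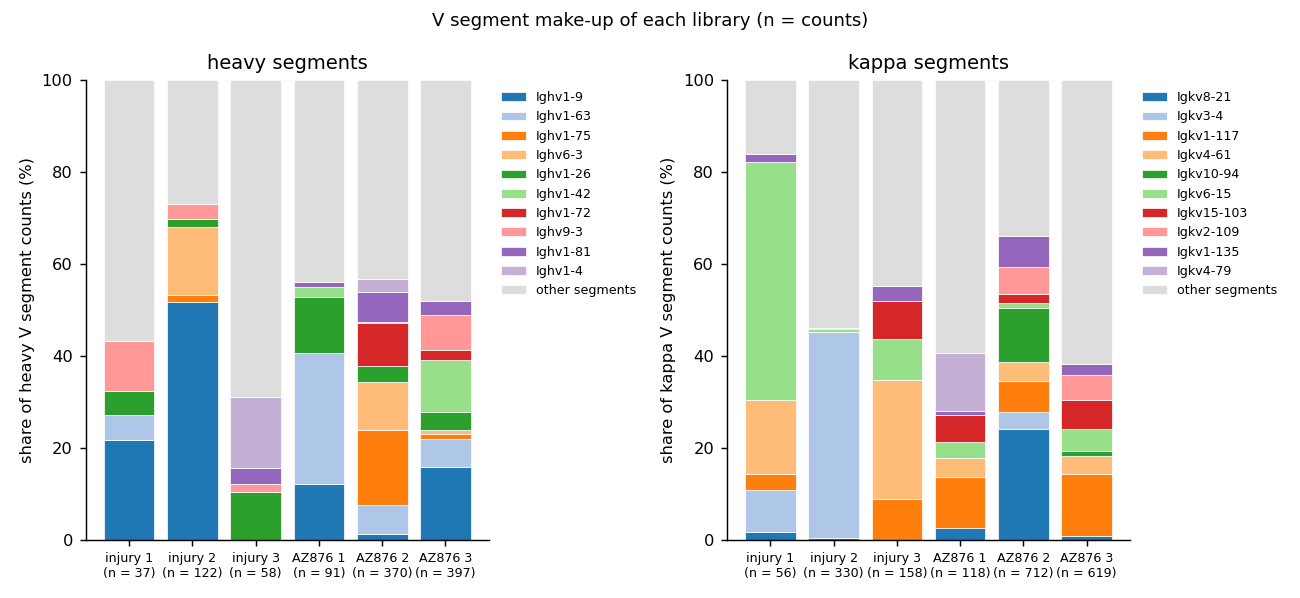
Share of heavy (left) and kappa (right) V segment counts, in percent, taken by the segments with the most counts over all libraries and by the leading segment of each library; each bar is 1 library, n is its number of counts, and grey holds all other segments. Igkv6-15 fills 51.8% of the kappa bar of injury replicate 1 and Igkv3-4 44.8% of that of injury replicate 2, while no segment exceeds 24.2% of a kappa bar with AZ876.

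Injury replicate 2 was made up of few segments in both chains. Its kappa counts were mainly Igkv3-4 (148 counts), Igkv8-24 (69), Igkv8-30 (38) and Igkv8-27 (29), and its heavy counts mainly Ighv1-9 (63), Ighv1-76 (23) and Ighv6-3 (18). Igkv8-24 had 1 count in each of injury replicate 3 and AZ876 replicate 3 and 0 elsewhere, and Igkv8-27 had 1 count outside injury replicate 2. The family of Igkv8 segments was dominant in another library through another member: Igkv8-21 had 1, 1 and 0 counts in the injury libraries and 3, 172 and 5 in the AZ876 libraries. A matching stretch of 120 bases near the 3′ end, again from GENCODE M21 on GRCm38, shows how these 4 segments differ. Capitals mark bases that differ from Igkv8-24.
Igkv8-24: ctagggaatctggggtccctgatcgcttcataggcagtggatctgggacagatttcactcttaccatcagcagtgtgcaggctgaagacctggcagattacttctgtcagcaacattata
Igkv8-30: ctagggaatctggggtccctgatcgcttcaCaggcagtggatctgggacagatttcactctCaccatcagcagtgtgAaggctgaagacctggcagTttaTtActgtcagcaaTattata
Igkv8-27: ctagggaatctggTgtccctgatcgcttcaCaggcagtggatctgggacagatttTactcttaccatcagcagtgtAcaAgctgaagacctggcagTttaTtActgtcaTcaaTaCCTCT
Igkv8-21: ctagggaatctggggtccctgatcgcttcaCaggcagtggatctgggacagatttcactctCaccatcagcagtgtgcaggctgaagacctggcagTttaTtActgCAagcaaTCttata
In this stretch Igkv8-30 differed from Igkv8-24 at 7 bases, Igkv8-21 at 9 and Igkv8-27 at 15. Over whole transcripts the identity to Igkv8-24 was 91.0% for Igkv8-30, 87.4% for Igkv8-21 and 85.3% for Igkv8-27, and none of the 3 shared a window of 100 bases with it. The read length in the name of the sequencing kit is 100 bases, so a whole read of the reference sequence tells these 4 apart.

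Ighv1-63, a heavy segment, had like counts in the 3 AZ876 libraries. It is listed as ENSMUSG00000096672 at 115459245 to 115459678 of chromosome 12, minus strand, with positions as listed in the table, whose build is unnamed. It had 2, 0 and 0 counts in the injury libraries and 26, 23 and 24 in the AZ876 libraries. All 3 AZ876 libraries stood far above the injury libraries, at 1.60 ± 0.190 CPM against 0.0326 ± 0.0564 CPM (SD, n = 3 each). The ratio of summed counts per library size was 43.5 (95% counting interval 11.6 to 366). Ighv1-26 was found in every library, with 2, 2 and 6 counts with injury and 11, 13 and 15 with AZ876, and the groups did not overlap.

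Several heavy segments were seen in AZ876 replicates 2 or 3 and hardly elsewhere. Ighv1-75 had 0, 2 and 0 counts with injury and 0, 60 and 4 with AZ876. Ighv1-72 had 0 counts in all injury libraries and 0, 34 and 9 with AZ876, at least 17.1-fold higher against a floor of 3 counts over the injury group. Such folds, here and below, pool the libraries of a group and allow for counting error on the injury side only. Ighv1-42 had 0 counts with injury and 2, 0 and 45 with AZ876, at least 18.7-fold higher. In each of these segments 1 library held most counts, and AZ876 replicate 1 lay at or near the injury level. Ighv5-16 showed the same, with 0 counts with injury and 0, 3 and 31 with AZ876 (at least 13.5-fold higher). Ighv1-81 had 0, 0 and 2 counts with injury and 1, 24 and 12 with AZ876, and Ighv9-3 had 4, 4 and 1 and 0, 1 and 30. AZ876 replicate 1 lay within the injury range for Ighv1-81 and below it for Ighv9-3.

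Other heavy segments were well represented in an injury library too. Ighv1-9 had 8, 63 and 0 counts with injury and 11, 5 and 63 with AZ876, a ratio of 1.33 with a counting interval of 0.951 to 1.85. Ighv6-3 had 0, 18 and 0 counts with injury and 0, 39 and 4 with AZ876, and Ighv1-76 had 0, 23 and 0 against 1, 10 and 4. Ighv1-4, which led injury replicate 3, had 0, 0 and 9 counts with injury and 0, 11 and 0 with AZ876. The groups overlapped in all 4. Of the heavy segments seen with injury only, Ighv1-85 had 8 counts in injury replicate 3, Ighv1-18 had 7 in injury replicate 1, Ighv1-84 had 3 in injury replicate 1 and Ighv5-4 had 3 in injury replicate 3. Each was thus found in a single library.

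Of the kappa segments, Igkv8-21 had the most counts over all libraries, and nearly all of them came from AZ876 replicate 2. It is listed as ENSMUSG00000076586 at 70291879 to 70292456 of chromosome 6, minus strand. Its levels were 0.0488, 0.0524 and 0 CPM with injury and 0.205, 12.1 and 0.291 CPM with AZ876, without overlap. Igkv10-94 had 0 counts in all injury libraries and 0, 84 and 6 with AZ876, at least 35.8-fold higher. Igkv2-109 had 0 counts with injury and 0, 41 and 33 with AZ876, at least 29.4-fold higher. Neither was found in AZ876 replicate 1.

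Igkv1-117 and Igkv10-96 were spread over the AZ876 libraries. Igkv1-117, listed as ENSMUSG00000094335 at 68098030 to 68098811 of chromosome 6, plus strand, had 2, 0 and 14 counts with injury and 13, 49 and 83 with AZ876. In CPM these were 0.0977, 0 and 0.909 against 0.888, 3.44 and 4.83, and AZ876 replicate 1 overlapped with injury replicate 3. Igkv10-96 had 0, 1 and 6 counts with injury and 14, 12 and 27 with AZ876, without overlap. Igkv15-103 had 0, 0 and 13 counts with injury and 7, 15 and 39 with AZ876, and its groups overlapped.

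The segments that led the injury libraries were found with AZ876 as well, at lower or like counts. Igkv3-4 had 5, 148 and 0 counts with injury and 0, 25 and 0 with AZ876, a ratio of 0.195 (counting interval 0.122 to 0.299). Igkv6-15 had 29, 2 and 14 counts with injury and 4, 7 and 30 with AZ876, and Igkv4-61 had 9, 0 and 41 against 5, 29 and 25. All 3 overlapped between the groups. Igkv4-79, the leading kappa segment of AZ876 replicate 1 with 15 counts, had 0 counts in the other 5 libraries. Igkv4-74 was the only kappa segment among the 5 of most counts seen with injury only, with 4 counts in injury replicate 3.

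**Figure D4:**
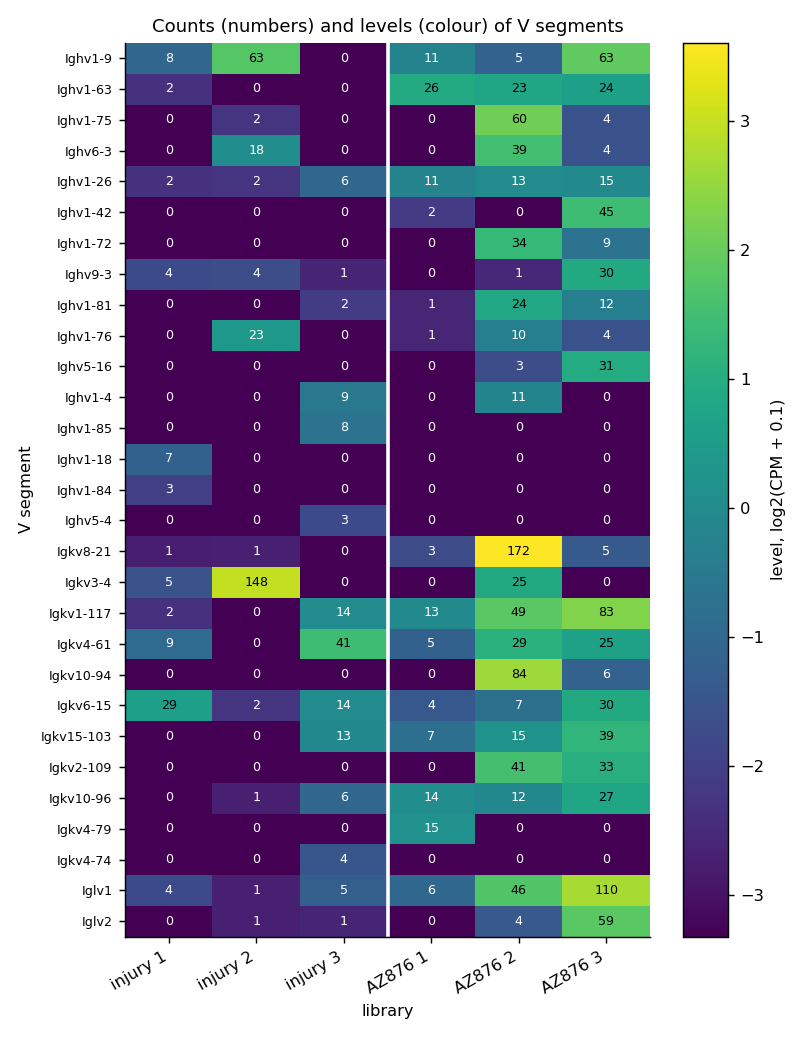
Counts (numbers in the cells) and levels (colour, log2 of CPM + 0.1) of the named V segments with a count, in rows by chain and total count, in the 6 libraries (columns; white line between injury and injury + AZ876). Ighv1-63 has 26, 23 and 24 counts in the AZ876 columns and at most 2 in the injury columns, while Igkv3-4 has 148 counts in injury replicate 2 and Igkv8-21 has 172 in AZ876 replicate 2.

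The lambda class was led by Iglv1 in every library, alone or tied. Iglv1, listed as ENSMUSG00000076934 at 18903767 to 18904250 of chromosome 16, minus strand, had 4, 1 and 5 counts with injury and 6, 46 and 110 with AZ876. Its CPM values were 0.195, 0.0524 and 0.325 against 0.410, 3.23 and 6.40, and the groups did not overlap. Iglv2 had 0, 1 and 1 counts with injury and 0, 4 and 59 with AZ876, where it took 34.9% of the lambda counts of replicate 3 and 8% of those of replicate 2. Iglv3 had 0 counts in all libraries. With 2 to 6 lambda counts per injury library, the Iglv1 share there ranged from 50.0% to 100.0% and cannot be set against the AZ876 shares with any precision.

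By family, the number after the chain letters of the symbol, the Ighv1 family held 70.2% of all heavy counts. It comprises 53 of the 113 heavy segments, and 31 of these had a count. Its share of heavy counts was 73.0%, 77.9% and 82.8% with injury and 79.1%, 74.3% and 59.9% with AZ876, with overlap. The families Ighv3 and Ighv7 had 0 counts in all injury libraries and 1, 9 and 14 and 3, 4 and 9 counts with AZ876. Ighv10 had 0 with injury and 1, 1 and 2 with AZ876, and Ighv8 had 0, 0 and 1 against 8, 4 and 17. These 4 families were the heavy families without overlap, and 0 were lower with AZ876 in that way. In Ighv3, Ighv7 and Ighv10 the lowest AZ876 library had 1, 3 and 1 counts, within the up to 3 counts that a 0 allows. The AZ876 libraries held most V counts, and no background share was taken, so the 4 against 0 is description only.

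Kappa counts were spread over more families, with Igkv1 at 18.6%, Igkv8 at 18.2%, Igkv4 at 14.1% and Igkv3 at 12.0% of all kappa counts. In injury replicate 2 Igkv3 took 47.3% and Igkv8 41.5%, and in injury replicate 1 Igkv6 took 51.8%. Igkv10, with 0, 1 and 6 counts against 14, 96 and 33, and Igkv17, with 0, 0 and 2 against 8, 9 and 46, did not overlap between the groups. A count was found for 3, 6 and 7 heavy families with injury and for 8, 9 and 11 with AZ876, of 16 families. For kappa, 6, 8 and 11 of 20 families had a count with injury and 14, 15 and 16 with AZ876. In both chains the AZ876 libraries all had more families than the injury libraries.

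Segment position was taken as the distance from a constant gene of the locus, Igkc for kappa and Ighm for heavy chains. Of the 100 kappa segments, the 50 nearer to Igkc took 89.3%, 90.9% and 62.0% of kappa counts in the injury libraries and 19.5%, 53.4% and 27.8% in the AZ876 libraries. Counts in the injury libraries were thus mostly from the nearer segments, and the groups did not overlap. The leading segments of the injury libraries, Igkv6-15, Igkv3-4 and Igkv4-61, all lie in the nearer 50, and so does Igkv8-21, while Igkv1-117 and Igkv10-94 lie in the farther 50. Igkv4-61, with 25.9% of the kappa counts of injury replicate 3, is the outermost of the nearer 50, so the separation of that library rests on where the line is drawn. For heavy chains, the 56 segments nearer to Ighm took 48.6%, 73.8% and 36.2% with injury and 24.2%, 32.7% and 53.7% with AZ876, with overlap. Segments with a count were found along both loci, in 38 of the nearer and 34 of the farther kappa segments and in 32 of the nearer and 31 of the farther heavy segments.

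**Figure D5:**
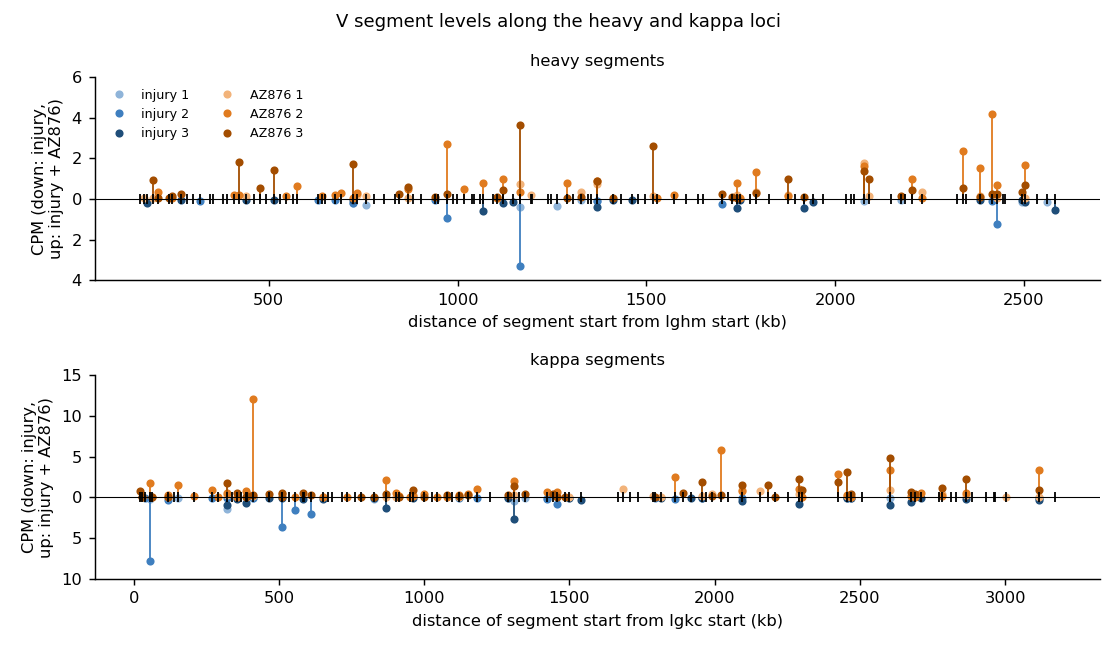
Level in CPM of each heavy (top) and kappa (bottom) V segment against the distance of its start from that of Ighm or Igkc in kb; injury libraries are drawn downward and AZ876 libraries upward, and black ticks mark all segments. The tallest kappa lines with injury lie near Igkc, among the 50 segments that took 62.0% to 90.9% of kappa counts there.

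The V segments share their transcripts with constant genes, which were counted as separate genes. Per 100 counts of heavy constant genes there were 3.01, 4.83 and 5.34 heavy V counts in the injury libraries and 8.78, 12.5 and 14.8 in the AZ876 libraries, without overlap. Kappa V counts per 100 counts of Igkc, the kappa constant gene, were 64.4, 31.0 and 52.1 with injury and 58.7, 67.6 and 69.6 with AZ876, with overlap. The make-up of the heavy constant counts varied widely between libraries. Ighm, the constant gene of IgM, took 81.7%, 95.3% and 49.4% of them with injury and 55.2%, 12.0% and 26.2% with AZ876. Igha, the constant gene of IgA, took 12.9%, 2.81% and 43.0% with injury and 33.5%, 69.9% and 63.1% with AZ876. Both overlapped through injury replicate 3 and AZ876 replicate 1. Per 100 counts of the Ighg, Igha and Ighe genes, heavy V counts were 17.1, 122 and 11.1 with injury and 20.7, 14.4 and 20.6 with AZ876.

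In the edgeR fit across all genes no V segment passed the test. The filter on low counts left 8 of the 218 V segments, so the test bears on these 8 only, and those with counts in 1 or 2 libraries are not among them. All 8 had a positive log2 fold change, and 0 had an adjusted p under 0.05 (edgeR quasi-likelihood F-test, Benjamini-Hochberg over 17599 genes), where 0.0% of all genes did. At an unadjusted p under 0.05, 4 of the 8 were higher, where 7.98% of all tested genes were. In 3 of the 8, Ighv1-63, Ighv1-26 and Igkv10-96, every AZ876 library stood above every injury library, against 10.2% of tested genes. These 3 had at most 6 counts in any injury library, so they passed the filter through their AZ876 counts. Their direction is thus partly set by the filter. The shares of the 8, here and with the tools below, cannot be read as support against those of all genes. Of the 137 V segments with a count, 16 had every AZ876 library above every injury library, and 0 were separated in the opposite way. The 10.2% covers only genes that passed the filter, which most of the 137 did not, so it is no background for this number. No such share was taken over all genes with a count, and the AZ876 libraries held most V counts. The 16 and the 0 are thus description only and cannot be read as a result about direction.

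Ighv1-63 had a log2 fold change of 5.20 ± 0.70 (SE, n = 3 each) with an edgeR adjusted p of 0.330. Ighv1-26 had 2.14 ± 0.56, Igkv10-96 had 3.04 ± 0.84 and Igkv1-117 had 3.29 ± 1.04, each with an edgeR adjusted p of 0.330. These 4 are the ones past an unadjusted p of 0.05, and leaving out any 1 library did not change their direction. For Igkv15-103 the log2 fold change was 2.32 ± 1.17 (edgeR adjusted p of 0.369). Ighv1-9 at 0.37 ± 1.22, Igkv4-61 at 0.37 ± 1.12 and Igkv6-15 at 0.08 ± 0.88 had standard errors larger than the change itself, and their direction turned without single libraries.

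Other settings gave few calls among V segments. Without the filter on low counts, edgeR called 1 of 137 V segments higher, Ighv1-63 with an adjusted p of 0.0184, where 0.0185% of all genes were called higher. Without AZ876 replicate 1, edgeR tested 21 V segments and called 3 higher, Ighv1-63, Iglv1 and Igkv2-109, each with an adjusted p of 0.0444. There 0.351% of genes were called higher. These 3 had at most 5 counts in any injury library, so they passed the filter through AZ876 counts. Their calls therefore cannot be read as support against the share of all genes. Leaving out any other library gave 0 calls. DESeq2 called 0 of the 8, where it called 0.705% of genes higher, but it gave an adjusted p for only 2 of them, Igkv1-117 (0.0828) and Ighv1-9 (0.942), and 4 of the 8 were higher at its unadjusted p under 0.05, where 8.51% of all genes were. Limma-voom called 0, with 5 higher at an unadjusted p under 0.05, where 8.96% of all genes were. With the V segments of 5 or more counts added to the tested genes, an alternative chosen after seeing the data, edgeR called 0 of 91. Of these, 79 had a positive log2 fold change, and 29 were higher and 1 lower at an unadjusted p under 0.05, where 8.03% of all genes were higher. Segments were added by their total over all libraries, and the AZ876 libraries held most V counts. Their direction is thus partly set by that choice, and these numbers add no support of their own.

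Reads from near-identical segments could be split or lost, depending on how reads that map to several places were counted, which is not given in the sources used here. Of the 218 segments, 86 share at least 1 window of 100 bases with another V segment or V pseudogene in GENCODE M21, and these held 48.3% of all V counts. Counts of Ighv1-72 are the least certain among the named heavy segments, since 42.8% of its windows also occur in Ighv1-50 or Ighv1-62-3. For Igkv1-117 16.1% of windows also occur in Igkv1-110, and for Igkv10-94 and Igkv10-96 12.9% and 12.3% occur in each other. Among the leading segments of single libraries, Igkv4-61 shares 19.1% of its windows with other segments, Ighv1-4 19.0%, Igkv4-79 16.6% and Ighv1-75 15.7%. Ighv1-63 shares 1.19% of its windows with another segment and Iglv1 1.71%. Igkv8-21, Igkv3-4, Igkv6-15, Igkv2-109, Igkv15-103 and Ighv1-9 share none.

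Other genes of B lineage cells were read beside the V segments. Of 14 constant and J chain genes together, 7 were tested, 6 of them with a positive log2 fold change and a median of 2.12, where the median of all genes was 0.00. The other gene tested, Ighm, was at 49.0, 126 and 34.9 CPM with injury and 39.1, 24.8 and 40.8 CPM with AZ876, with overlap and a log2 fold change of −1.0 ± 0.46 (edgeR adjusted p of 0.346). Ighg1, the constant gene of IgG1, was at 0.195, 0.105 and 0.195 CPM with injury against 2.94, 2.1 and 2.09 CPM with AZ876. Its edgeR log2 fold change was 3.80 ± 0.41, at an adjusted p of 0.295. Like Ighv1-63, it was at a similar level in all 3 AZ876 libraries. Jchain, which encodes the joining chain of IgM and IgA, was at 1.76, 5.29 and 6.17 CPM with injury and 3.82, 31.7 and 21.5 CPM with AZ876, with AZ876 replicate 1 within the injury range, as for the V sums.

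Of 18 B cell markers 12 were tested, 11 of them higher (median log2 fold change 0.91), and 4 were higher at an unadjusted p under 0.05. Their summed level was 103 to 119 CPM with injury and 128 to 174 CPM with AZ876. The tested marker that was lower was Ebf1, with a log2 fold change of −0.39 ± 0.45. Cd79a, which encodes a signalling chain of the B cell receptor, was named because it had the smallest edgeR p of this list. It was at 0.977, 0.786 and 1.62 CPM with injury and 1.78, 2.95 and 3.03 CPM with AZ876, without overlap. Of 14 plasma cell markers 12 were tested and 10 were higher, with a median of 0.40. Those lower were Derl3 at −0.02 ± 0.37 and Sec11c at −0.03 ± 0.10. Sdc1, which encodes the plasma cell surface proteoglycan syndecan-1 and is made by other cells too, was likewise named for the smallest p. It was at 9.72, 5.56 and 12.1 CPM with injury and 15.6, 19.1 and 21.6 CPM with AZ876. Mzb1, a chaperone gene typical of antibody-secreting cells, was at 0.0649 to 0.419 CPM with injury and 0.0701 to 0.478 CPM with AZ876.

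Of 10 factors that attract B cells or sustain them 6 were tested, 5 of them higher (median log2 fold change 0.99). Cxcl13, the main B cell attracting chemokine, was at 0.0488, 0.419 and 0.130 CPM with injury and 1.23, 1.26 and 1.51 CPM with AZ876. Ccl19, a chemokine for lymphocytes, was at 2.64, 3.14 and 3.31 against 5.05, 7.37 and 7.16 CPM. Both were named as list members of smallest p. Neither overlapped, and edgeR gave an adjusted p of 0.330 for each. Among 8 genes of the surrogate light chain and of recombination only Vpreb3 was tested, with a log2 fold change of 0.62 ± 0.35. In edgeR 0 members of these lists passed, while 5 constant and J chain genes, 4 B cell markers, 2 plasma cell markers and 5 attraction and survival factors were higher at an unadjusted p under 0.05, where 7.98% of all tested genes were. Limma-voom also called 0, and DESeq2 called 2 of them, Ccl19 and Ltb, where it called 0.705% of all genes higher.

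Markers of other cells were read in the same libraries. The 9 T cell receptor chain and coreceptor genes were all higher, at a median log2 fold change of 1.67, and their summed level was 7.55 to 16.5 CPM with injury and 23.2 to 39.4 CPM with AZ876. EdgeR called 0 of the 9, with 8 higher at an unadjusted p under 0.05 against 7.98% of all genes. Limma-voom called 0, and DESeq2 called 3 against 0.705% of all genes. Red cell genes, a sign of blood left in the tissue, summed to 1806, 4288 and 2688 CPM with injury and 3195, 4644 and 17178 CPM with AZ876. The groups overlapped in this sum. In the edgeR fit all 5 red cell genes were higher, and their log2 fold changes centred on a median of 1.57. None was called, and 2 were higher at edgeR's unadjusted p under 0.05, where DESeq2 and limma-voom each had 0. AZ876 replicate 3 was the highest in red cell genes. AZ876 replicate 2, which had the highest summed V level in CPM, was close to injury replicate 2 in red cell genes. The part of blood in the V segment levels was not tested. The 10 spinal cord markers, such as the myelin gene Mbp, summed to 27741 to 36717 CPM in every library, and none was at 0.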

How the data were processed

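RNA of 6 spinal cord samples was sequenced, 3 per group. The authors deposited raw read counts per gene, whole numbers in 1 column per sample. The tools fastp 0.23.0 and HISAT2 2.1.0 are listed, without their roles, per the submitters' processing notes. Not given in the sources used here are the genome build, the annotation, the tool that counted reads, its use of strand and its rule for multi-mapped reads. Reads across a rearranged junction or with somatic mutations match a reference less well, and how this touched the counts was not tested.

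The table has 57010 rows, and 1 row per symbol left 56859 genes. Totals per library ran from 14067649 to 20211175 counts. Low-count genes were removed with filterByExpr, which left 17599, libraries were scaled by TMM, and AZ876 was tested against injury with edgeR's robust quasi-likelihood test (edgeR 4.0.16, R 4.3.3) without covariates, with Benjamini-Hochberg adjustment over all genes and a threshold of 0.05. The script was tested on simulated data. Alternatives were DESeq2 1.42.0, limma-voom (limma 3.58.1), other scalings, no filter, a replicate block and leaving out each library. Sums, numbers of segments and shares are described without a test. Thinned numbers are exact hypergeometric expectations. Ratios of counts are relative to TMM-scaled library sizes.

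The segments named are those with the most counts per chain (10 heavy, 8 kappa, all lambda), the leading segment of each chain and library, the 3 tested segments of smallest p in each direction, and the 5 with the most counts among those found in 1 group only. Others were chosen after their values were seen: Igkv8-24, Igkv8-30 and Igkv8-27, the remaining tested segments, Igkv1-135, which had a count in all libraries, and Mzb1. From the lists other than the constant and J chain genes, the genes named were mainly those of smallest edgeR p. Their separation between the groups thus follows partly from that choice. The segments and gene lists were chosen with earlier results of these data known. Sequences are GENCODE M21 transcripts on GRCm38.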

Additional observations from a re-analysis of the deposited data

How the results depend on the processing

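The number of V segments called by edgeR was 0 in the main setting and 1 without a filter on low counts. It was 0 to 3 when each library was left out, with 3 of 21 tested without AZ876 replicate 1. The cause was not tested. With the replicate number of the titles as a replicate block, 0 V segments were called, the smallest adjusted p (edgeR) was 0.0677 and 2 genes were called in all. The same-numbered libraries correlated at 0.39, −0.14 and 0.32, which does not settle whether they are pairs. Nothing in the labels ties equal numbers, so they were not taken as pairs. The difference in the number of segments detected, 38.7, was 14.8 after thinning to equal V counts, where fewer counts are left by construction. Leaving out each library, the difference in the leading share ran from −16.4 to 1.65 percentage points for heavy and from −5.97 to 19.0 for lambda, each turning without injury replicate 2, and from −31.6 to −18.6 for kappa. The log2 fold change then ran from −1.16 to 2.87 for Ighv1-9, from −0.24 to 2.47 for Igkv4-61 and from −1.07 to 0.81 for Igkv6-15. The summed levels kept their direction under all alternatives run, with log2 ratios of 1.51 to 2.50 over all segments. Depth limits the lambda shares and single segments, since the injury libraries held 97 to 454 V counts.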

Other observations

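V segments of the T cell receptor, the corresponding genes of T cells, had 37, 21 and 43 counts in the injury libraries and 46, 59 and 48 in the AZ876 libraries. In CPM these were 1.81, 1.10 and 2.79 against 3.14, 4.14 and 2.79. They were found for 18, 13 and 22 segments with injury and 24, 20 and 16 with AZ876, so that their spread between libraries was smaller than that of the immunoglobulin V counts, which ran from 97 to 1185. The leading T cell receptor segment of AZ876 replicate 3, Trav14n-3, took 16 of its 48 counts.

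The 158 immunoglobulin V pseudogenes, which cannot encode a chain, had 5 counts in all libraries together, spread over 4 genes, against 3305 counts for the 218 V segments. The immunoglobulin J segments had 3, 3 and 3 counts with injury and 3, 3 and 7 with AZ876, and the D segments had 1 count in all. Of the 100 kappa segments, 38 lie on the strand of Igkc and 62 on the opposite strand, and the 38 took 17.9%, 48.5% and 31.0% of kappa counts with injury and 42.4%, 34% and 59.1% with AZ876.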
